A study of Mus musculus with 32 samples.

Results

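The granins and the genes of prohormone processing were followed here across sorted islet cell populations of the βVEGF-A mouse. Members were the rows of the expression table whose symbol was *Pcsk1*, *Pcsk2*, *Cpe*, *Pcsk1n*, *Scg5*, *Chga*, *Chgb*, *Scg2*, *Scg3* or *Vgf*, and all 10 were found among 22850 genes. Peptide hormones are made as longer precursors that are packed into dense-core secretory granules and cut there. The prohormone convertases PC1/3 (*Pcsk1*) and PC2 (*Pcsk2*) cut at pairs of basic residues, and carboxypeptidase E (*Cpe*) then trims those residues from the new ends; in β cells these steps turn proinsulin into insulin and C-peptide. ProSAAS (*Pcsk1n*) is an inhibitor of PC1/3, and 7B2 (*Scg5*) is a chaperone that PC2 needs to become active. The granins chromogranin A (*Chga*), chromogranin B (*Chgb*), secretogranin II (*Scg2*) and secretogranin III (*Scg3*) are acidic proteins of the granule core that take part in sorting and aggregation, and *Vgf* encodes a granin-like precursor of secreted peptides.

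The study sorted islet cells of triple transgenic mice (MIP-GFP, RIP-rtTA and TetO-VEGF-A) before, during and after doxycycline (Dox) induction of VEGF-A in β cells and sequenced amplified RNA from 32 samples. The mouse *Ins1* promoter drove GFP, the rat insulin promoter drove the reverse tetracycline activator, and the activator switched on a human VEGF-A transgene only when Dox was given, so every group, No Dox included, carried all 3 transgenes. Mice were 8 to 16 weeks old when experiments began. β cells were taken as GFP+ cells negative for CD31 and CD11b, endothelial cells (ECs) as CD31+ cells and macrophages (MΦs) as CD11b+ cells. Each sample pooled islets of several mice. No Dox samples came from untreated mice (4 β cell, 4 EC and 4 MΦ samples), the 1wk Dox group (5, 1 and 2 samples) was taken after VEGF-A had been induced for 1 week, and the 1wk WD group was collected 1 week after such a Dox course had ended (3, 5 and 4 samples). Nothing in the labels says which mice entered which pool, so p-values measure only the spread between these samples, which may in part be technical. The column labels of both 1wk Dox MΦ samples, the 1wk Dox EC sample and β cell 1wk WD sample 3 form a run of numbers apart from all others. What that run stands for is not stated, and in MΦs and ECs it cannot be told apart from 1wk Dox.

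Values are the deposited normalized expression scores, whole numbers of which the lowest is 1; their sums ran from 23465985 to 53441769 per sample, and the depth in reads is unknown. Fold changes are differences on the log2(score + 1) scale with limma standard errors (SE), and a gene was called when it differed at least 2-fold with a Benjamini-Hochberg adjusted p under 0.05 over all genes tested. The summed score of 10 β cell markers was 513966 to 10941261 in β cell samples, 371 to 3339 in ECs and 1975 to 47759 in MΦs; 8 endothelial markers summed to 393853 or more in every EC sample, and 7 macrophage markers to 253272 or more in every MΦ sample. Every sample thus held the markers of its labelled cell type, but samples differed widely in other cells' transcripts. The pericyte gene *Pdgfrb* scored 80, 66, 13692 and 49477 in β cell No Dox samples 1 to 4, 6919 to 34404 in 1wk Dox samples and 3980 to 48280 in 1wk WD samples, and 7 acinar markers summed to between 157 and 11100799. In β cell No Dox samples 3 and 4 the acinar sums (11100799 and 8527256) were above those of the β cell markers (1681031 and 644064). The same held for EC No Dox sample 2 (1519327 against 535884 for endothelial markers). It also held for MΦ No Dox samples 2 and 4 (10431210 and 1778713 against 296980 and 336975 for macrophage markers). MΦ No Dox sample 2 also stood apart, with *Ins1* at 27471 against 1046 to 3345 in the other 3, and with the acinar gene *Ctrb1* at 6456823. In such bulk samples fewer cells of a type and less RNA per cell cannot be told apart.

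The promoter sequences of the members were read as a description. The RefSeq promoter table (GRCm38.p6) held 8 of the 10, all but *Cpe* and *Vgf*. The palindromic cAMP response element TGACGTCA lay within the 250 bases before the start of 3 of the 8, *Chgb*, *Scg2* and *Pcsk1*, and in 1.55% of all 32851 promoters. The letters TGACG, searched on both strands and also part of the full element, was found in 7 of 8 (not *Pcsk1n*) against 17.8% of all promoters. GC boxes (CCGCCC, both strands) were found in 5 of 8 against 32.7%. The letters TATAAA were found in 0 of 8 on either strand against 12.4%, and the E-box CACGTG in 0 of 8 against 6.02%. These matches describe the letters only. The 100 bases before the start of the 3 promoters with the full element, and of *Chga* with TGACG alone, are shown 5′ to 3′ on the gene's strand, with the full element, or TGACG in *Chga*, in capitals; a further TGACG in *Pcsk1*, 50 bases before the start, is left in lower case.
Chgb, chr2:132781542-132781641, plus strand: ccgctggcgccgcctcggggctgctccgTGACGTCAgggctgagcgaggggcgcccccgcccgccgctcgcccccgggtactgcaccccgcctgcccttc
Scg2, chr1:79440027-79440126, minus strand: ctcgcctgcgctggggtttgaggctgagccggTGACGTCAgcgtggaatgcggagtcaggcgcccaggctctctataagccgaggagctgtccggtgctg
Pcsk1, chr13:75089757-75089856, plus strand: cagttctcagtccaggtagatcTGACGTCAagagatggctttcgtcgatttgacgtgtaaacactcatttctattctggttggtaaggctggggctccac
Chga, chr12:102554841-102554940, plus strand: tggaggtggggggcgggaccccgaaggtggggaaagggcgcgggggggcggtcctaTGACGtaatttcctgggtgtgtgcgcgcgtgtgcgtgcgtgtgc
The full element began 72 bases before the start in *Chgb*, 68 in *Scg2* and 78 in *Pcsk1*, and the *Chga* TGACG 44 bases before it.

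In β cells 6 of the members, *Chgb*, *Chga*, *Scg2*, *Pcsk2*, *Cpe* and *Scg3*, had a median rank by score between 3 and 36 over the 12 samples. *Chgb* ranked between 3 and 38 among 22850 genes and *Chga* between 5 and 73. *Pcsk1* followed between 68 and 1975 (median 256), *Scg5* between 321 and 2915 (median 693) and *Pcsk1n* between 230 and 3627 (median 1572), and *Vgf* lay lowest, between 1930 and 13263 (median 5807). Per kilobase of annotated exon, the No Dox order by median score per kb was *Chgb* at 102000, *Chga* at 41900, *Scg2* at 27400, *Scg3* at 18700, *Cpe* at 18000, *Pcsk2* at 6530, *Scg5* at 5670, *Pcsk1* at 4960, *Pcsk1n* at 1870 and *Vgf* at 120. Each gene lay above the next in 4 of 4 No Dox samples except *Scg3* and *Cpe*, which changed places (*Scg3* was the higher in 2 of 4). *Cpe* stood above *Scg2* in 4 of 5 samples for 1wk Dox and above *Scg3* in 3 of 3 for 1wk WD. *Chgb* and *Chga* kept the first and second places in 1wk Dox (74500 and 43600 per kb) and 1wk WD samples (91600 and 29600 per kb), and *Vgf* kept the last (695 and 459 per kb). *Pcsk1*, the convertase that acts first on proinsulin, thus stood below *Pcsk2* per kb in every β cell group, at 4960, 4050 and 2940 against 6530, 7410 and 4090.

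The processing enzymes in β cells had the following scores. *Pcsk1* (mm9 chr13:75227274-75269946, plus strand, ENSMUSG00000021587) scored 24978, 22163, 10008 and 3363 in No Dox samples 1 to 4, 8149, 17287, 13134, 4988 and 17481 at 1wk Dox, and 6650, 9529 and 27785 in 1wk WD samples. *Pcsk2* (chr2:143371892-143642021, plus strand, ENSMUSG00000027419) scored 83129, 68177, 35129 and 14850 at No Dox, 31582, 64076, 58606, 24670 and 75965 at 1wk Dox, and 19968, 32365 and 91027 in 1wk WD samples. *Cpe* (chr8:67071355-67171837, minus strand, ENSMUSG00000037852) scored 43668, 53841, 31582 and 19751 at No Dox, 37170, 59891, 45795, 28863 and 62996 at 1wk Dox, and 19579, 29695 and 69107 in 1wk WD samples. For all 3 enzymes the time points overlapped and the spread lay within groups, with No Dox sample 4 and 1wk WD sample 1 low and 1wk WD sample 3 high. The log2 difference of 1wk Dox from No Dox was -0.09 (SE 0.64) for *Pcsk1*, 0.17 (SE 0.60) for *Pcsk2* and 0.37 (SE 0.43) for *Cpe*, all smaller than their errors. At 1wk WD against No Dox it was 0.05 (SE 0.72), -0.09 (SE 0.68) and -0.02 (SE 0.49).

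The partners of the convertases followed the same samples. *Pcsk1n* (chrX:7496948-7501536, plus strand, ENSMUSG00000039278) scored 7186, 4841, 3371 and 1958 at No Dox, 3568, 4879, 5791, 3181 and 7602 at 1wk Dox, and 2730, 3454 and 14122 in 1wk WD samples. *Scg5* (chr2:113616519-113669278, minus strand, ENSMUSG00000023236) scored 12553, 11770, 6026 and 2578 at No Dox, 5311, 10005, 7155, 3439 and 10714 at 1wk Dox, and 2460, 4048 and 9071 in 1wk WD samples. Neither separated the time points. *Scg5* had the lowest 1wk WD difference of the members, -0.63 (SE 0.61, adjusted p = 0.749), and *Pcsk1n* differed by 0.39 (SE 0.57, adjusted p = 0.841). Relative to *Chga* in the same sample, *Scg5* scored 77.5, 122, 98 and 88.1 per 1000 at No Dox, 75.3 to 87.3 in 1wk Dox samples and 61.3 to 72.7 in 1wk WD samples, so on this ratio the 1wk WD samples lay below both other groups; the ratio was chosen after the values were seen and was not tested.

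The granins other than *Vgf* did not separate the time points either, and *Chgb* and *Chga* had the highest scores of the members in every β cell sample. *Chgb* (chr2:132607014-132620815, plus strand, ENSMUSG00000027350) scored 392556, 417614, 165136 and 55815 at No Dox, 127981, 343349, 204087, 131052 and 384759 at 1wk Dox, and 152770, 250933 and 338629 in 1wk WD samples. *Chga* (chr12:103793179-103803237, plus strand, ENSMUSG00000021194) scored 161936, 96410, 61465 and 29255 at No Dox, 61735, 127328, 81970, 45684 and 129552 at 1wk Dox, and 37023, 55658 and 147941 in 1wk WD samples. Within No Dox alone *Chgb* spanned 7.48-fold, the widest of the members, and *Cpe* 2.73-fold, the narrowest. *Scg2* (chr1:79431244-79436665, minus strand, ENSMUSG00000050711) ranged from 21633 to 99055 in No Dox samples, from 20840 to 77251 in 1wk Dox samples and from 16995 to 80979 in 1wk WD samples. *Scg3* (chr9:75491071-75531803, minus strand, ENSMUSG00000032181) ranged from 12191 to 67487, from 22000 to 64519 and from 19986 to 56877. Their log2 differences at 1wk Dox ran from -0.27 (*Scg2*, SE 0.60) to 0.18 (*Chga*, SE 0.59), and at 1wk WD from -0.56 (*Scg2*, SE 0.69) to 0.25 (*Chgb*, SE 0.87).

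**Figure D1:**
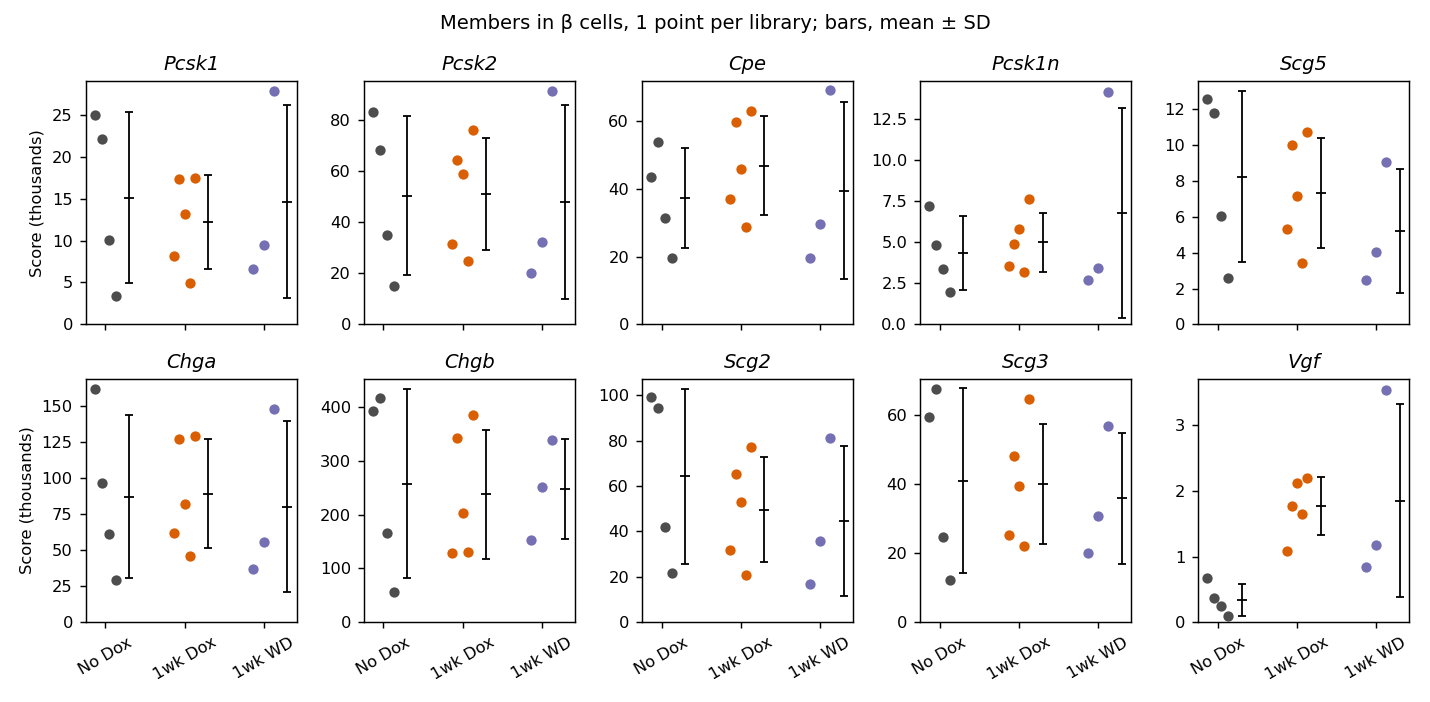
Score of each member in β cells, divided by 1000 on a linear axis, at No Dox (4 samples), 1wk Dox (5) and 1wk WD (3), with 1 point per sample and bars for the mean ± SD. For 9 members the groups overlap, whereas every 1wk Dox and 1wk WD point of *Vgf* (848 to 3532) lies above every No Dox point (97 to 667).

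*Vgf* (chr5:137506165-137509221, plus strand, ENSMUSG00000037428) departed from the other 9. It scored 667, 374, 240 and 97 in β cells at No Dox, 1089, 1774, 2123, 1647 and 2189 at 1wk Dox, and 848, 1172 and 3532 in 1wk WD samples. The lowest 1wk Dox and 1wk WD samples both lay above the highest No Dox sample, and 1wk Dox and 1wk WD overlapped. Group means were 344 ± 243 (SD, n = 4), 1760 ± 441 (n = 5) and 1850 ± 1470 (n = 3). Against No Dox the log2 difference was 2.63 (SE 0.54) for 1wk Dox and 2.46 (SE 0.61) for 1wk WD, and -0.17 (SE 0.59) between 1wk WD and 1wk Dox. Neither difference passed the test over 16346 genes: limma adjusted p was 0.269 for 1wk Dox (unadjusted p = 0.000408, rank 22 of all genes) and 0.518 for 1wk WD. The groups did not overlap with the later group higher for 1.08% of all genes in the 1wk Dox comparison and 3.34% in that of 1wk WD. Acinar transcripts went the other way: all 7 acinar markers were lower in 1wk Dox samples on the log2 scale, and 0 were called. They summed to 27805 to 11100799 in No Dox samples, 157 to 19135 in 1wk Dox samples and 326 to 540834 in 1wk WD samples. Endothelial markers were higher in 8 of 8 (median 2.19 for 1wk Dox and 1.06 for 1wk WD). Pericyte and fibroblast markers were higher in 9 of 9 (median 4.14 and 3.84). For 1wk WD, 7 of 7 MΦ markers were higher (median 2.12) and 5 of 5 α cell markers lower (median -0.86), with 0 called in any of these lists. Markers of δ and PP cells summed to 13521 to 141917 in No Dox samples, 32157 to 91644 in 1wk Dox samples and 20636 to 66130 in 1wk WD samples. The part of all these transcripts in the *Vgf* values was not tested. Without No Dox samples 1 and 2, those with the least pericyte transcript, the 1wk Dox difference was 3.48 (adjusted p = 0.0188, a call), and without samples 3 and 4 it was 1.78 (adjusted p = 0.0548).

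Set against the other members in the same sample, *Vgf* separated the groups more widely. As a percent of the geometric mean score of the other 9 members, it stood at 1.27, 0.79, 1.01 and 0.891 at No Dox, at 4.98, 4.18, 6.36, 9.8 and 4.45 at 1wk Dox, and at 5.74, 5.05 and 6.34 at 1wk WD. The No Dox values lay within a narrow band although the samples' geometric means of the other 9 fell between 10880 and 52550. Per 1000 of *Chga*, *Vgf* scored 3.32 to 4.12 in No Dox samples, 13.9 to 36.1 in 1wk Dox samples and 21.1 to 23.9 in 1wk WD samples. These ratios were formed after *Vgf* was seen to differ and carry no test. With samples rescaled to 5 endocrine transcription factors (*Pax6*, *Neurod1*, *Insm1*, *Isl1* and *Nkx2-2*), an alternative added after seeing the data, the *Vgf* difference at 1wk Dox was 2.14 (SE 0.37, adjusted p = 0.0935) while the median of all genes moved to -0.45.

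**Figure D2:**
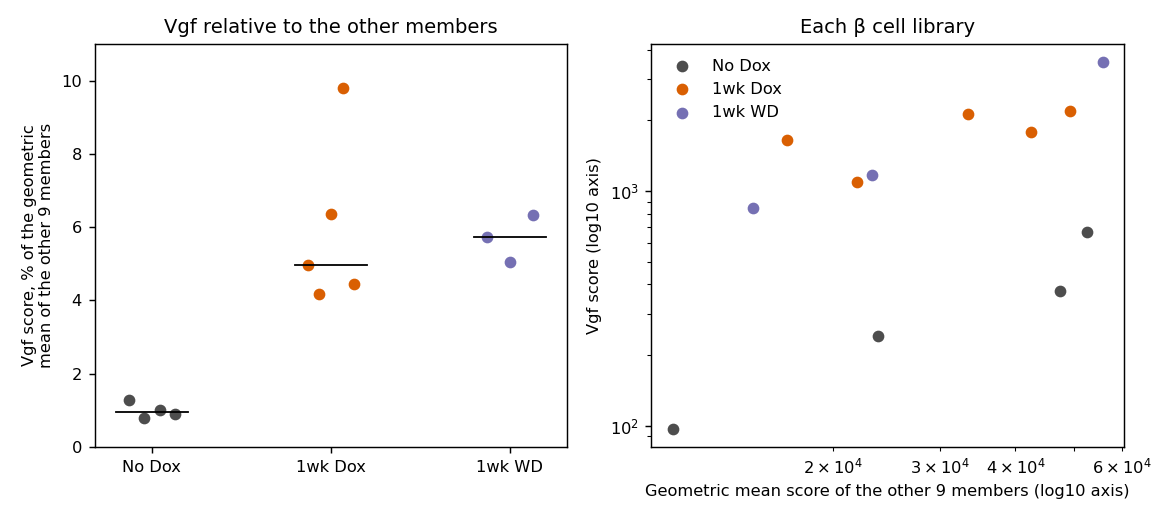
Left, *Vgf* score in each β cell sample as a percent of the geometric mean score of the other 9 members, with a line at the group median; right, *Vgf* score against that geometric mean, both on log10 axes, 1 point per sample. No Dox samples lie between 0.79% and 1.27% over the whole range of the other members, and 1wk Dox and 1wk WD samples between 4.18% and 9.8%.

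Over all members, 0 of 10 were called in β cells between 1wk Dox and No Dox, where 0.0122% of genes tested were called, and 0 of 10 at 1wk WD against either group, where 0% were. At an unadjusted p under 0.05 and a 2-fold change, 660, 727 and 471 genes passed over the whole table (4.04%, 4.45% and 2.88%) in the comparisons of 1wk Dox with No Dox, 1wk WD with No Dox and 1wk WD with 1wk Dox, *Vgf* among them for both later time points against No Dox and no other member. The median log2 difference of the other 9 was 0.15 for 1wk Dox and -0.02 for 1wk WD, beside 0.03 and 0.06 over all genes. That median did not hold its direction: at 1wk Dox it was -0.78 without No Dox samples 3 and 4, 0.92 without samples 1 and 2, 0.99 after quantile normalization and -0.33 with endocrine scaling. Among β cell markers 3 of 10 were higher and 7 lower at 1wk Dox (median -0.50) and 0 were called, and among 9 pericyte and fibroblast markers 9 were higher (median 4.14, summed score 957 to 527947 before and 105110 to 494095 after 1 week of Dox) and 0 were called. The part these transcripts played in the members' values was not tested.

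The members varied together from sample to sample. No Dox sample 4 had the lowest score of its group for 10 of 10 members, 1wk Dox sample 5 the highest for 10 of 10, 1wk WD sample 1 the lowest for 10 of 10 and 1wk WD sample 3 the highest for 10 of 10; 1wk Dox sample 4 was lowest for 8 of 10. Over the 12 β cell samples the Pearson r of log2(score + 1) ran from 0.779 to 0.981 (median 0.926) for the 36 pairs without *Vgf* and from 0.28 to 0.66 (median 0.523) for the 9 pairs with it. These points share their cell preparation and amplification, and *Pdgfrb* correlated with the members' mean at r = -0.622, so the values are a description. The geometric mean of the 5 endocrine transcription factors went the same way, at 6430, 6260, 2940 and 1090 over No Dox samples 1 to 4 beside 52550, 47320, 23710 and 10880 for the 9 members.

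The genes most like the members' mean over the 12 β cell samples were *Gnao1* (r = 0.995), *Gng4* (0.993), *Entpd3* (0.988), *Nkx6-1* (0.987), *Wnt4* (0.985), *Syt7* (0.985), *Pcbp3* (0.983), *Ap3b2* (0.983), *Bex2* (0.981) and *Kif1a* (0.98), out of 15666 compared, of which 467 reached 0.9. *Nkx6-1* is a β cell transcription factor and *Syt7* a calcium sensor of exocytosis. *Ins1* followed at 0.856 (rank 860). Over all 32 samples, where the 3 cell types set the correlation, the closest were *Galnt14* (0.992), *Slc7a14* and *Gdap1* (both 0.991), *Bex2* (0.99), *Rit2*, *Ap3b2* and *Tmem215* (each 0.989), and *Gpr158*, *Rab9b* and *Gjd2* (each 0.988). There 856 of 15655 genes reached 0.9.

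Between cell types the members marked β cells. At No Dox all 10 were called higher in β cells than in ECs, where 21.2% of genes tested were called in that direction, and all 10 higher than in MΦs, where 23.5% were. At 1wk WD all 10 were again called higher, against 25.2% and 27% of all genes. These 40 calls were unchanged by every alternative scaling, filter, pseudocount and omission of 1 sample that was run. The EC means of *Pcsk1n*, *Scg5* and *Vgf* lay under the minimum of 20. They were 7.25, 6.5 and 7.75 at No Dox and 1.6, 10.8 and 12.8 at 1wk WD. So did the means of *Vgf* in MΦs (4.5 and 16.5) and of *Pcsk1n* in 1wk WD MΦs (14). *Vgf* at both time points and *Pcsk1n* at 1wk WD were tested only because β cells were high. Against ECs at No Dox the log2 difference was 11.26 for *Scg2*, 11.13 for *Chgb*, 10.32 for *Chga*, 10.29 for *Scg5*, 9.90 for *Pcsk2*, 9.63 for *Cpe*, 9.10 for *Pcsk1n* and 8.28 for *Pcsk1*. It was smallest for *Scg3* (6.44, SE 0.86) and *Vgf* (5.11, SE 0.68). Where EC scores were 14 or less the size depended on the pseudocount, and with 20 it was 8.06 for *Scg5*, 7.18 for *Pcsk1n* and 3.45 for *Vgf*. Against MΦs it ran from 9.33 for *Chgb* down to 5.83 for *Vgf* and 5.76 (SE 0.68) for *Scg5*. *Vgf* scored only 1 to 7 in No Dox MΦs, and with a pseudocount of 20 these were 3.63 and 5.56.

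**Figure D3:**
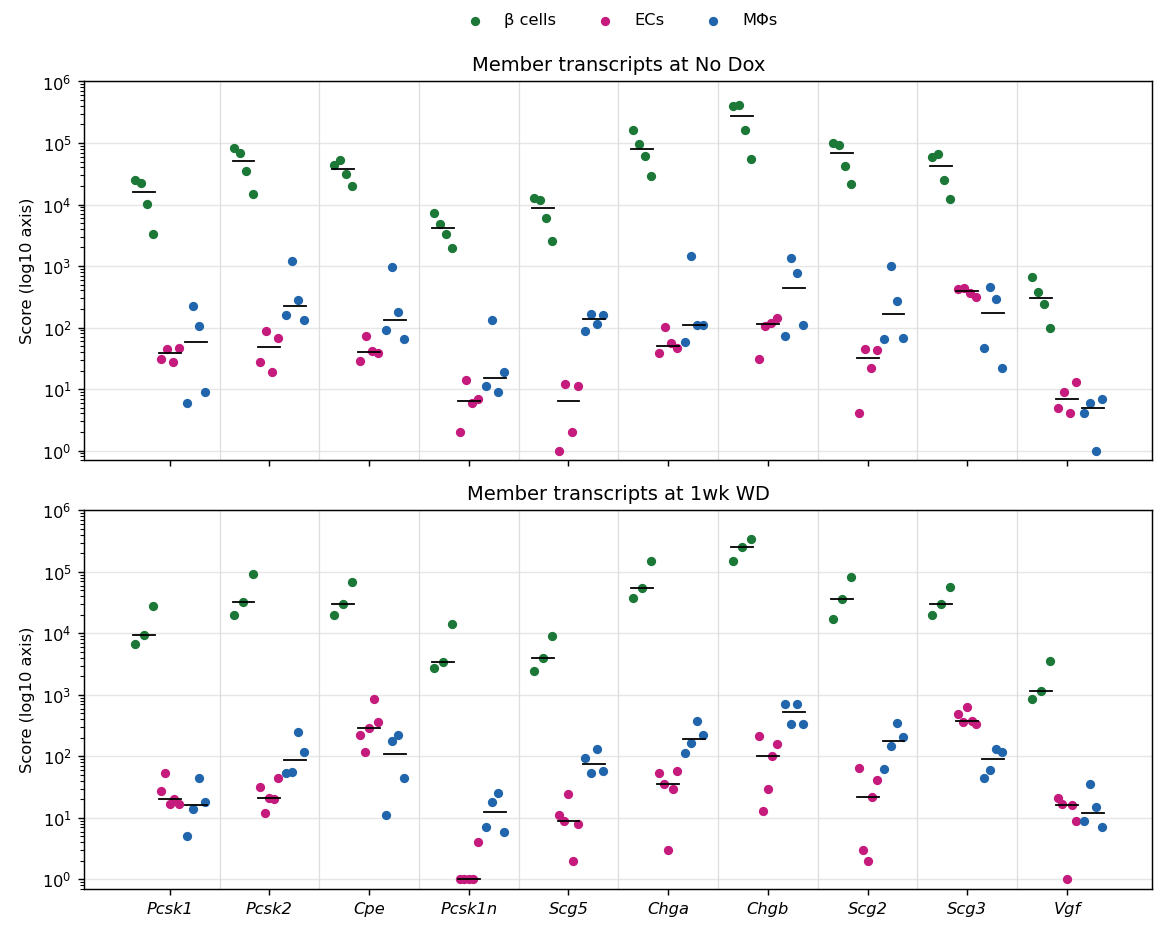
Score of each member on a log10 axis in β cells, ECs and MΦs at No Dox (upper panel) and 1wk WD (lower panel), 1 point per sample with a line at the median. β cell points lie above all EC and MΦ points for every member, and EC points of *Scg3* and, at 1wk WD, of *Cpe* stand above those of most other members.

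The members did not all share one low level in ECs. At No Dox the median EC score was 0.0403% to 0.158% of the β cell median for *Chgb*, *Scg2*, *Chga*, *Scg5*, *Pcsk2*, *Cpe* and *Pcsk1n*, beside 0.0372% for *Ins1*, 0.0299% for *Ins2* and 0.0384% for *Iapp*. It was 0.236% for *Pcsk1*, 0.948% for *Scg3* and 2.28% for *Vgf*, the last with scores of only 4 to 13. *Scg3* scored 428, 431, 369 and 312 in ECs at No Dox, 260 in the single 1wk Dox sample and 495, 368, 624, 381 and 339 at 1wk WD. It thus varied 1.38-fold among No Dox ECs, and per 1000 of *Chga* it stood at 4230 to 11300 in ECs against 367 to 700 in β cells. Against MΦs, *Scg3* in ECs was higher by 1.79 (SE 0.86, adjusted p = 0.117, not called) at No Dox and by 2.41 (SE 0.36, limma adjusted p = 7.82e-05) at 1wk WD, where 19.6% of genes were called higher. Without MΦ No Dox sample 2 the No Dox difference was 2.47 (adjusted p = 0.0288, a call). *Cpe* was also called higher in ECs than in MΦs at 1wk WD (2.13, SE 0.79, adjusted p = 0.0356), but not without EC sample 3, 4 or 5 or MΦ sample 1 or 4 (adjusted p 0.0586 to 0.122).

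In MΦs *Scg5*, the PC2 chaperone gene, varied least among the members at No Dox. *Scg5* scored 88, 164, 112 and 159 in MΦs at No Dox, 115 and 169 in 1wk Dox samples, 93, 54, 133 and 58 in 1wk WD samples, and 1 to 12 in No Dox ECs. Its No Dox MΦ median was 1.52% of the β cell median, against 0.139% to 0.427% for the members other than *Vgf* (1.63%, scores 1 to 7) and 0.124% for *Ins1*. Transcripts of the other islet hormones were higher still on this scale in No Dox MΦs, at 8.27% for *Gcg* (glucagon), 4.36% for *Sst* (somatostatin) and 3.79% for *Ppy*, and their part in the *Scg5* values was not tested. Their percents rest on β cell medians of 46412, 18764 and 16024. Those samples were not sorted for the cells that make these hormones, so the percents are not directly comparable with that of *Scg5*. *Scg5* varied 1.86-fold among No Dox MΦs, whereas the other 9 varied between 7-fold and 37.8-fold, with sample 2 the highest for all of those but *Vgf*. It was called lower in ECs than in MΦs at No Dox (-4.53, SE 0.68, adjusted p = 0.000188) and at 1wk WD (-3.06, SE 0.59, adjusted p = 0.000591); with a pseudocount of 20 the differences were -2.50 and -1.74, still called. *Pcsk2* (-2.76, adjusted p = 0.0112), *Scg2* (-3.08, adjusted p = 0.0203) and *Cpe* (-2.03, adjusted p = 0.0339) were also called lower in ECs at No Dox, where 17.6% of genes were, though the *Scg2* call was lost without EC sample 1 (adjusted p = 0.0618) or MΦ sample 2 or 3 (0.0533 and 0.0521), and the *Cpe* call without EC sample 1, 3 or 4 or MΦ sample 3 (0.0638 to 0.0861). At 1wk WD, where 20.8% of genes were called lower in ECs, *Chga*, *Chgb*, *Pcsk2* and *Scg2* joined *Scg5*, by -1.98 (*Pcsk2*) to -3.43 (*Scg2*). *Pcsk1n* also passed (-2.42), but its means of 1.6 in ECs and 14 in MΦs were both under the minimum of 20, it was tested only because β cells were high, and it did not pass with a pseudocount of 20 (-0.62, adjusted p = 0.228). At No Dox the 10 β cell markers summed to 1975 to 47759 in MΦs and 440 to 2247 in ECs, and their part in the members' MΦ values was not tested.

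**Figure D4:**
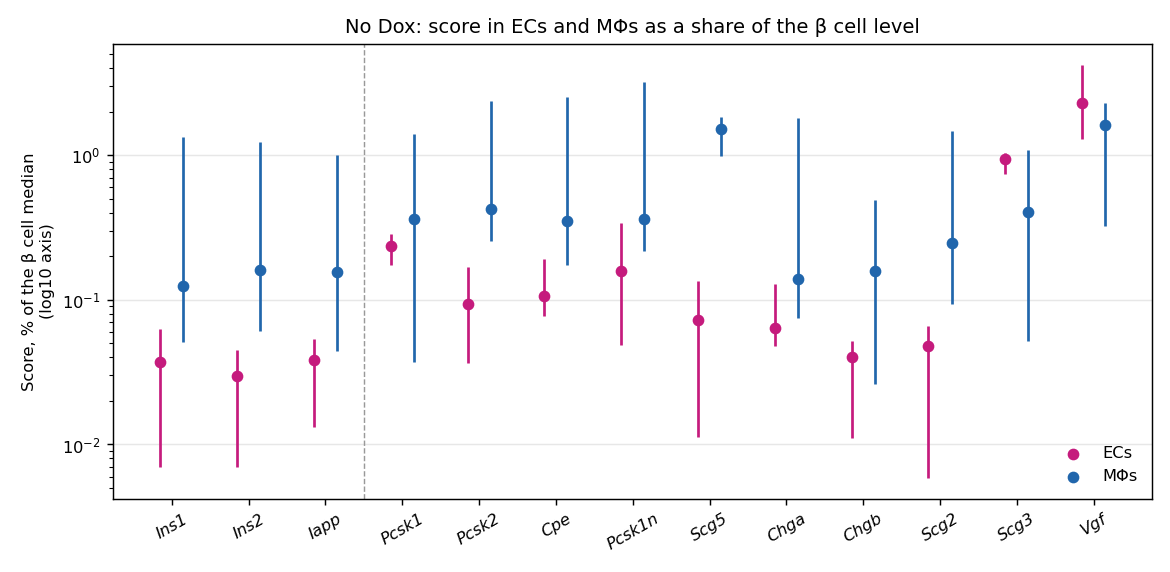
Score at No Dox in ECs and MΦs as a percent of the β cell median on a log10 axis, for *Ins1*, *Ins2* and *Iapp* (left of the dashed line) and the 10 members; points are medians of 4 samples and lines run from the lowest to the highest sample. *Scg3* in ECs (0.948%) and *Scg5* in MΦs (1.52%) lie above these 3 hormone genes with short lines, and *Vgf* (2.28% and 1.63%) rests on scores of 13 or less.

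In ECs, *Cpe* was the only member called between time points. It scored 29, 72, 41 and 39 at No Dox, 82 in the single 1wk Dox sample, and 221, 119, 290, 862 and 356 at 1wk WD. Every 1wk WD sample lay above every No Dox sample, which held with the later group higher for 5.75% of genes. Acinar transcripts went the other way, with 7 of 7 acinar markers called lower (summed score 57292 to 1519327 at No Dox and 678 to 54204 at 1wk WD), and their part in the *Cpe* values was not tested. The mean *Cpe* score rose from 45.2 ± 18.6 (SD, n = 4) to 370 ± 289 (n = 5), a log2 difference of 2.77 (SE 0.47, limma adjusted p = 0.0113), where 1.28% of 14167 genes tested were called higher. The call held without each sample in turn (2.39 to 3.10, adjusted p 0.00504 to 0.0441).

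Pericyte and fibroblast transcripts moved with *Cpe* in these sorts. All 8 stromal markers tested were higher at 1wk WD and 4 were called (*Col1a1*, *Col1a2*, *Col3a1* and *Rgs5*, by 2.01 to 2.49), and the 9 markers summed to 5173 to 11866 at No Dox and 16374 to 69590 at 1wk WD. *Rgs5*, a pericyte gene, scored 4582, 8531, 4449 and 9981 in No Dox ECs and 40996, 16799, 14734, 63203 and 18398 at 1wk WD, with its highest value in the sample where *Cpe* was highest. *Pdgfrb* in contrast was 636 in 1wk WD sample 3, within its No Dox range of 423 to 1206, where *Cpe* scored 290. With the mean of *Pdgfrb* and *Rgs5* as a covariate, an alternative added after seeing the data, the *Cpe* difference was 1.96 (SE 0.73, adjusted p = 0.355) and no longer called, and the median of the other 6 members tested moved from -0.56 to -2.02. Schwann and neuronal markers were also higher (3 of 3 tested, median 0.86, 0 called), and all 6 summed to 125 to 180 at No Dox and 147, 175, 369, 630 and 201 in 1wk WD samples 1 to 5; the defining Schwann cell gene *Sox10* scored 1 to 17 in both groups. Their part in the *Cpe* values was not tested. In the sorted cells *Cpe* of pericytes, of other cells and of ECs cannot be told apart.

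**Figure D5:**
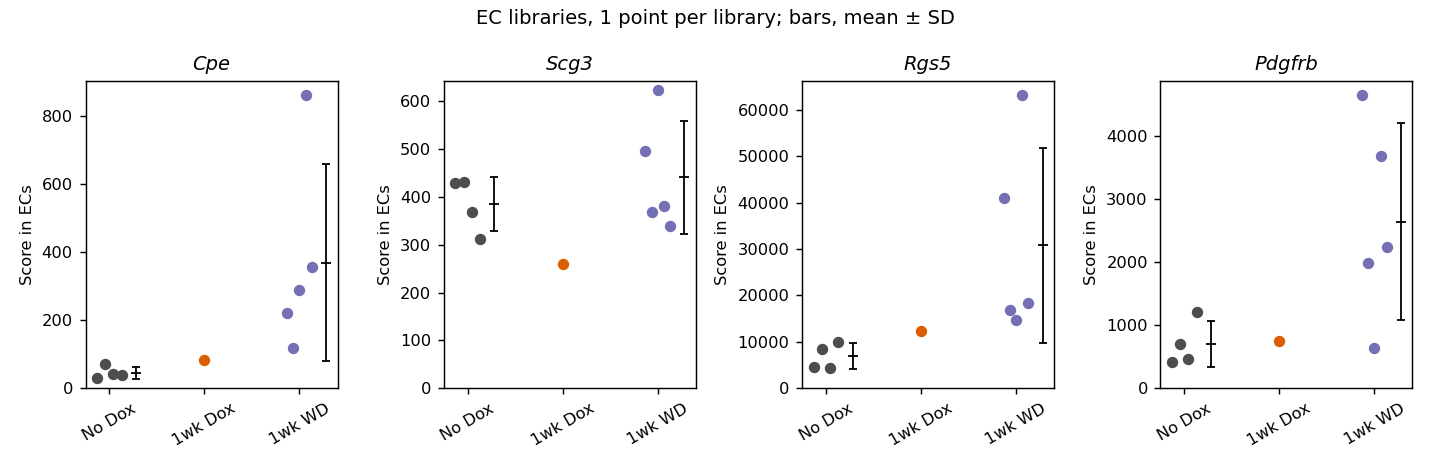
Scores of *Cpe*, *Scg3*, *Rgs5* and *Pdgfrb* in EC samples on linear axes at No Dox (4 samples), 1wk Dox (1) and 1wk WD (5), 1 point per sample with bars for the mean ± SD where there are replicates. *Cpe* and *Rgs5* at 1wk WD lie above all No Dox points (119 to 862 against 29 to 72, and 14734 to 63203 against 4449 to 9981), while *Scg3* (339 to 624) overlaps No Dox (312 to 431).

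The other 6 members tested in ECs were not called between 1wk WD and No Dox, with differences from -1.09 (*Chga*, SE 0.71) to 0.17 (*Scg3*, SE 0.20, adjusted p = 0.646), a median of -0.56 beside 0.00 over all genes. *Pcsk1n*, *Scg5* and *Vgf* stayed under the minimum mean score of 20 and were not tested. *Pcsk1n* scored 2, 14, 6 and 7 at No Dox and was at the lowest score of 1 in 4 of 5 samples at 1wk WD. The difference between cell types was tested directly for the change from No Dox to 1wk WD: β cells less ECs gave -2.79 for *Cpe* (SE 1.08, adjusted p = 0.222) and 2.06 for *Vgf* (SE 0.99, adjusted p = 0.328), and 0 of 10 members were called, where 0.383% of genes were. Of *Vgf*, *Scg5* and *Pcsk1n*, only *Vgf* entered these fits through β cells alone. *Scg5* and *Pcsk1n* were over the minimum score in MΦs as well, with means of 131 and 42.8 in MΦs of untreated mice. For each of these genes the EC part rests on group means under 20. Of β cells less MΦs 0 of 10 were called either, where 0.0413% of genes were for 1wk WD and 0.0354% for 1wk Dox. The single 1wk Dox EC sample was not tested. In it *Scg2* (2), *Chga* (11) and *Scg3* (260) scored below all 4 No Dox samples, and *Cpe* (82), *Pcsk1* (50) and *Pcsk1n* (15) above them. Of the 7 members over the minimum score, *Scg2*, *Chga* and *Chgb* lay 2-fold or more from the No Dox mean, where 10.7% of genes did.

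In MΦs the time points of most members overlapped, and single samples set the spread. *Chga* scored 59, 1429, 109 and 110 in No Dox samples, 381 and 771 in 1wk Dox samples and 113, 165, 375 and 225 in 1wk WD samples. *Pcsk2* scored 159, 1221, 282 and 132 in No Dox samples, 233 and 437 in 1wk Dox samples and 53, 56, 246 and 117 in 1wk WD samples. In both genes No Dox sample 2 was far above the other 3, and it was the sample with the most *Ins1*. At 1wk Dox all 9 members tested lay above No Dox on the log2 scale (median 0.51 beside 0.03 over all genes), 0 were called against 2.26% of all genes, and 9 of 10 β cell markers were higher too (median 0.73, summed score 1975 to 47759 without Dox and 8203 to 18153 after 1 week of it). Without No Dox sample 2, *Chga* differed by 2.59 (SE 0.52, adjusted p = 0.019) and was called, against 1.59 (SE 0.96, adjusted p = 0.379) with it. The median of the 9 was 1.23 without that sample, -0.04 without No Dox sample 1 and -0.27 without 1wk Dox sample 5.

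At 1wk WD 0 of 9 MΦ members were called against No Dox or 1wk Dox, where 0.626% and 0.0866% of genes were. The median difference was -0.67 against No Dox, with 7 of 9 lower, and -0.05 to -0.97 leaving out 1 sample. Against 1wk Dox it was -1.36, with 8 of 9 lower, and -0.89 to -1.87 leaving out 1 sample. *Chgb* differed by 0.68 and 0.17 and *Chga* by 0.15 and -1.44. The β cell markers went the same way, 8 of 10 lower against No Dox (median -0.63) and 10 of 10 lower against 1wk Dox (median -1.42, summed score 3636 to 7025 at 1wk WD). *Pcsk2* had the largest difference from No Dox, -1.59 (SE 0.67, adjusted p = 0.250). At an unadjusted p under 0.05 and a 2-fold change, 983, 746 and 273 genes passed (6.55%, 4.97% and 1.82%) in the MΦ comparisons of 1wk Dox with No Dox, 1wk WD with No Dox and 1wk WD with 1wk Dox, *Pcsk2* among them for 1wk WD against No Dox. The part of β cell transcript in the members' MΦ values was not tested.

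Other genes of the pathway differed from list to list between β cells and ECs at No Dox, where 21.2% of all genes were called higher and 16.5% lower in β cells. Of 7 other convertases 2 were called higher and 1 lower: *Pcsk6* (6.53) and *Pcsk4* (5.58) were higher, while *Furin*, the convertase of the constitutive pathway, scored 906 to 2016 in β cells and 2262 to 2592 in ECs (-0.78, under the fold threshold). Of 6 further enzymes that act on peptide ends, 2 were called higher and 2 lower, and *Pam*, which amidates peptides, scored 8793 to 14363 in β cells, 5706 to 7922 in ECs and 986 to 1195 in MΦs (0.78 against ECs, not called, and 3.41 against MΦs, called). Of 12 granule membrane and granule formation genes 6 were called higher than in ECs and 1 lower, led for the receptor-like phosphatases by *Ptprn2* (7.54) and *Ptprn* (7.25). Of 9 prohormone genes tested 7 were higher and 0 lower, with *Ins2* at 11.71, *Ins1* at 11.34 and *Iapp* at 11.11. *Rest*, a repressor of neuroendocrine genes, was the 1 of 6 endocrine transcription factors called lower (-4.26). It scored 25, 5, 831 and 1358 in β cell No Dox samples 1 to 4, against 2006 to 2442 in ECs and 2458 to 3414 in MΦs. Samples 3 and 4, where the members were low, also held more *Pdgfrb* (13692 and 49477, against 80 and 66) and more acinar transcript. Over the 12 β cell samples *Rest* correlated with the members' mean at r = -0.644, beside -0.622 for *Pdgfrb*. The part of other cells' transcripts in the *Rest* values was not tested.

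Across time points 0 genes of these 5 lists were called in β cells in any of the 3 comparisons. *Ptprn* had a log2 difference of 0.77 (SE 0.55) and *Ptprn2* of -0.29 (SE 0.51) at 1wk Dox, *Furin* of 0.05 (SE 0.22) and *Pam* of -0.01 (SE 0.26). *Ins1* and *Ins2* differed by -0.89 (SE 1.84) and -0.74 (SE 1.49), errors wide enough that changes of several fold in either direction were not detectable. In ECs at 1wk WD the only gene of these lists called was *Ppy*, pancreatic polypeptide, which fell by 3.30 on the log2 scale (SE 0.77, adjusted p = 0.0333) from scores of 67 to 303 at No Dox, where 0.487% of genes were called lower, the 7 acinar markers among them, and in MΦs 0 were called.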

How the data were processed

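RNA of sorted cells had been amplified, sequenced as paired ends and aligned to mm9 with TopHat2 2.0, per the submitters' processing notes, and the authors normalized transcript abundance by the trimmed mean of M-values in Avadis NGS. The deposited unit is a score: normalized expression given in whole numbers, none below 1. Scores are not read counts, depth is unknown and no count model was used. Sample columns of another series in the table, 6 in all, were not used; the labels place further 1wk Dox EC and MΦ replicates in another series, which were not analysed here.

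Scores were analysed as log2(score + 1) with limma 3.58.1 (lmFit, eBayes with trend, Benjamini-Hochberg over all genes tested) in R 4.3.3, for genes whose mean score reached 20 in 1 or more groups fitted. The fold threshold of 2 and adjusted p of 0.05 follow the study's methods; its z-score test is not described closely enough to repeat. β cell (12 samples), EC (9) and MΦ (10) time points were fitted apart, as were the 3 cell types at No Dox and at 1wk WD; differences between cell types in their change over time came from 1 fit over 8 groups. The single 1wk Dox EC sample entered no test. The procedure was tested on simulated data. Python 3.11.15 with pandas 2.3.3, numpy 2.4.6 and matplotlib 3.10.9 made summaries and figures.

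Members, gene lists and markers were chosen with earlier results of these data known. Named were all 10 members, in the other lists *Ins1*, *Ins2*, *Rest*, *Furin*, *Pam*, *Ptprn*, *Ptprn2* and the largest called changes, and the 10 genes most correlated with the members' mean; other genes were named after their values were seen. Promoters are those of RefSeq. Gene positions (mm9) are the deposited ones, and exon lengths are unions of exons in the GENCODE annotation of the same build. Alternatives were other pseudocounts, filters, scalings, a fit without trend, a replicate block and the omission of samples.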

Additional observations from a re-analysis of the deposited data

Results flagged for a closer look

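Each member in each group of 4 or 5 samples was checked for a sample whose gap to the nearest other was wide for the range of its group (Dixon's 95% limit). Of 60 groups 6 held such a sample. The limit is set to flag 1 in 20 groups of independent normal values. These groups share samples and include scores near the lowest, so the 6 were not set against chance. In MΦs at No Dox, sample 2 was the high one for *Chga* (1429, the next 110), *Pcsk2* (1221, the next 282), *Cpe* (957, the next 176) and *Pcsk1n* (132, the next 19). The same sample held the most *Ins1* and *Ctrb1* transcript of its group. In ECs at 1wk WD, *Pcsk1* scored 54 in sample 2 (the next 27) and *Pcsk1n* scored 4 in sample 5 where the other 4 samples were at the lowest score of 1, a tie that makes any higher score pass this limit.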

How the results depend on the processing

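All 10 members between cell types, and over time *Vgf* in β cells, *Cpe* in ECs, *Chga* in MΦs and the β cell less EC differences of *Cpe* and *Vgf*, were recomputed under 1433 combinations of member, comparison and alternative, of which 1405 kept direction and side of the threshold, 15 lost a call, 3 gained one and 10 changed sign. Members called in ECs at 1wk WD went from 1 to 0 with the pericyte covariate, and in β cells at 1wk Dox from 0 to 1 (*Vgf*) without No Dox samples 1 and 2. Leaving out 1 sample gave 0 to 1 called members in MΦs at 1wk Dox (*Chga* without No Dox sample 2) and 2 to 4 between ECs and MΦs at No Dox (2 without EC sample 1 or MΦ sample 3). Among these, signs changed for differences that were not called: *Vgf* in β cells between 1wk WD and 1wk Dox (0.0894 and 0.12 with endocrine scaling with and without *Insm1*, and -0.78 to 0.25 leaving out 1 sample), *Pcsk1* between ECs and MΦs at No Dox (-0.29 with a pseudocount of 20, and -0.74 to 0.94 leaving out 1 sample) and *Vgf* between ECs and MΦs at 1wk WD (-0.76 to 0.14 leaving out 1 sample). The causes were not tested.

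Samples shared only replicate numbers. Deviations of same-numbered samples correlated above 0.1 in 3 of 10 pairs of β cell samples (-0.48 to 0.339), 2 of 4 of ECs and 1 of 6 of MΦs between time points, and in 2 of 12 at No Dox and 4 of 10 at 1wk WD between cell types. With a replicate block, *Cpe* in ECs at 1wk WD differed by 2.71 (adjusted p = 0.0261) and *Vgf* in β cells at 1wk Dox by 2.54 (adjusted p = 0.569), and the number of members called did not change in any comparison of time points or cell types. Without read depth, low scores in ECs and MΦs cannot be given a counting error.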

Other observations

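The genes whose pattern over the 12 β cell samples was most like that of *Vgf* alone were looked up after its values were seen. They were *Iqgap1* (Pearson r = 0.975), *Trim67* (0.961), *Anxa10* (0.958), *4732456N10Rik* (0.952) and *Pdyn* (0.93), the last the prodynorphin precursor of opioid peptides. *Ptprn* stood at 0.834 (rank 43) and *Ins1* at 0.264.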
